A study of Mus musculus with 3 samples.

Results

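Calmodulin is the small calcium sensor of animal cells: when calcium rises it wraps around short helices of its target proteins and switches them on. Its best-known targets are kinases of the CaM kinase family, among them the upstream kinase CaMKK2, which phosphorylates CaMKI and the energy sensor AMPK, the multimeric CaMKII, and the phosphatase calcineurin, which dephosphorylates NFAT transcription factors so that they enter the nucleus. In mammals Calm2 and Calm3 encode the same protein, so each is read here through a part of its own mRNA. The 6 genes described are Calm2 and Calm3, the kinase genes Camkk2, Camk1 and Camk2d, and Ppp3ca, which encodes the alpha catalytic subunit of calcineurin. They were chosen by name as the array files give it, all their noncontrol probes were taken, and they comprise 12 of 39429 distinct probes and 6 of 30199 gene names on the array. The set was proposed with ratios of this same comparison in view, so the values of the 6 genes are a description. Where limma calls on them are given, these are not read as tests.

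The study compared 2 stably selected derivatives of RM1, a mouse prostate cancer cell line: RM1-MXRA7, transfected with MXRA7, and RM1-VE, transfected with the empty vector. Both were grown in serum-supplemented DMEM with G418, and RNA was taken in exponential growth on day 2. Each of 3 Agilent 2-colour arrays, numbered 1 to 3, was hybridised with Cy3-labelled RM1-MXRA7 and Cy5-labelled RM1-VE. As no array had the dyes swapped, the effect of line and that of dye cannot be told apart. The labels do not say whether the lines are clones or pools, nor whether the 3 arrays came from separate cultures, so any p-value measures only the spread between these arrays. All 3 arrays lay on 1 slide scanned at 1 time, 21787 to 24181 probes per channel were well above background, and having only 3 arrays limits the precision. Of 10 prostate and epithelial marker genes, only the keratin genes Krt8, Krt14, Krt18 and Krt19 were well above background in both lines on all 3 arrays, while Pbsn, Hoxb13, Tmprss2, Epcam, Cdh1 and Krt5 were not; 3 of 6 immune markers (not Ptprc) and 3 of 4 endothelial markers passed. Of these 10 measured markers, 3 were called in both fits, where 23.8% of all genes were, 12.5% lower in RM1-MXRA7. All 3 markers were lower in RM1-MXRA7: Cdh5 at -0.87, Krt19 at -0.73 and Cd3e at -0.29 after loess. The part of such cells in the results was not tested. Mxra7 was read by 2 kept probes. The brightest had a log2 ratio of 0.31 after loess, 0.016 once the trend over the array surface was taken out, and -0.034 when Agilent's processed signals were used, while the other, at 0.10, 0.088 and 0.18, was above 0 on all 3 arrays each time. Directions follow the dyes stated in the labels.

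The probes are 60 bases long and are named below by gene and by their start in the transcript, as the array files give it. The calmodulin probes are shown because they decide which of the mRNAs for one protein is read, and the Camk1 probe because it is spotted 10 times. Each line gives the last 30 bases, 5′ to 3′ as the array files give them, and capitals mark AATAAA, the canonical polyadenylation signal.
Calm2, position 924: gcgtggactgtggacagtcaacaatatgta
Calm2, position 1127: ccaagttgtatatttgttttccAATAAAaa
Calm3, position 718: aatctgataaagcaccaaaagatttgtccc
Calm3, position 2142: tatatcaatgttttccAATAAAatacagtg
Camk1, position 866: gacccggagaagaggtttacctgtgagcag
AATAAA occurred in 12.6% of all 39429 probes on the probe strand and in 4.03% on the other strand, and in the Calm2 probe at 1127 and the Calm3 probe at 2142 among those shown. These 2 probes share the run tgttttccAATAAAa of 15 bases. The longest run shared by any other pair of the calmodulin probes was 6 bases. Whether RNA of one calmodulin gene bound the probe of another was not tested.

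On the mm9 build, the Calm2 probes lie on chromosome 17 at 87832973 to 87833032 (position 924) and 87832770 to 87832829 (position 1127), on the minus strand. The Calm3 probes lie on chromosome 7 at 17502158 to 17502217 and 17500734 to 17500793, also on the minus strand. Camk1 is read at chromosome 6, 113286369 to 113286428, and Ppp3ca at chromosome 3, 136598682 to 136598741. The brightest probes of Camk2d and Camkk2 lie at chromosome 3, 126547685 to 126547744, and chromosome 5, 123183273 to 123183332. Exon and UTR annotation of these positions was not used here.

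Both Calm2 and Calm3, as well as the kinase and calcineurin genes, were well above background in both lines on all 3 arrays, with 0 saturated and 0 outlier spots. Over the 12 probes, the mean log2 ratio of RM1-MXRA7 over RM1-VE ran from -0.32 to 0.21 after loess, with a median of -0.014. It ran from -0.22 to 0.18 with the surface trend removed and from -0.21 to 0.31 in Agilent's processed signals. The largest difference after loess was 1.25-fold. With median centring in place of loess the brightest probes lay lower, at -1.10 for Calm2, -0.58 for Calm3, -0.49 for Camk2d, -0.43 for Ppp3ca, -0.40 for Camkk2 and -0.077 for Camk1, where the median of all genes was -0.29. In limma, 2 of the 6 genes passed an adjusted p of 0.05 after loess, Calm2 lower and Camk1 higher, where 47.4% of 16825 genes passed, 23.9% higher and 23.5% lower. With the surface trend removed Camk1 alone passed, on the higher side, where 32.5% of genes passed, 16.5% higher and 16% lower. In Agilent's processed signals Camk1 did not pass, where 24.4% of genes did. Only Camk1 passed both after loess and with the surface trend removed, where 23.8% of all genes did so in the same direction, 11.3% higher and 12.5% lower. Since the genes were proposed with this comparison in view, nothing is read from these counts. Levels of the lines did not overlap for 2 of the 12 probes, against 37.2% of kept probes, and 3 of the 12 had the same sign on every array in all 3 processings, against 38.3%.

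**Figure D1:**
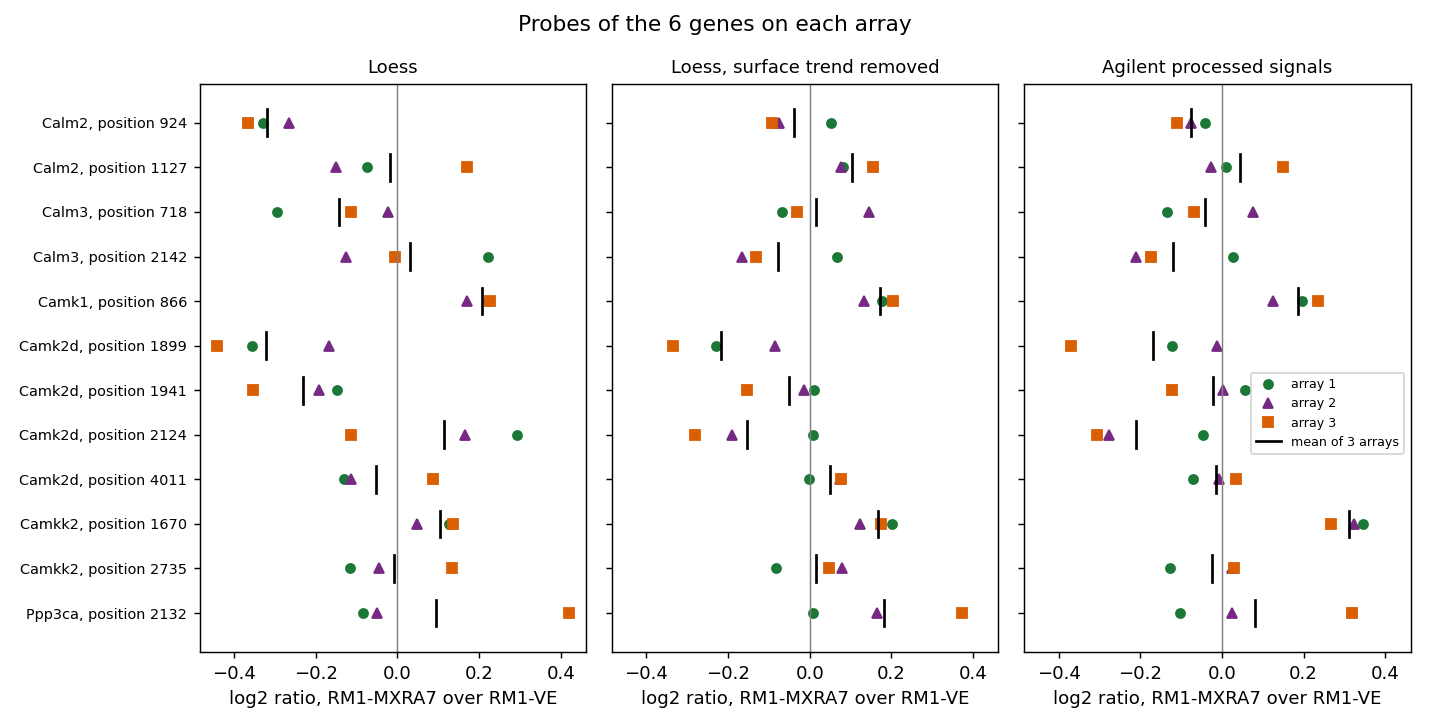
Log2 ratio of RM1-MXRA7 over RM1-VE (x axis) for each probe of the 6 genes (y axis, gene and position in the transcript) in 3 processings. Symbols are the 3 arrays and vertical bars their means; the 12 probes lie near 0, with means from -0.32 to 0.31 over the panels, and most have arrays on both sides of 0 in at least 1 panel.

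Calm2, a calmodulin gene, had log2 intensities at its brightest probe, position 924, of 16.12, 16.23 and 16.16 in RM1-MXRA7 and of 16.45, 16.50 and 16.52 in RM1-VE on arrays 1, 2 and 3. The RM1-MXRA7 values lay below the RM1-VE values on each array and the lines did not overlap. The log2 ratio was -0.32 ± 0.05 (SD, n = 3) after loess. It shrank to -0.039 ± 0.08 with the surface trend removed, where array 1 turned positive at 0.052, and was -0.076 ± 0.035 in Agilent's processed signals. The second Calm2 probe, further along the same transcript, had levels of 15.90, 15.91 and 15.94 in RM1-MXRA7 and of 15.97, 16.06 and 15.77 in RM1-VE, which overlapped. Its ratio was -0.018 ± 0.17 after loess and 0.10 ± 0.04 with the surface trend removed. The probes of this 1 gene thus differed by 0.30 after loess and by 0.14 after removal of the trend, and the lower level of Calm2 rests on the brighter probe before removal.

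Calm3, another gene for the same protein, had levels at its brightest probe of 12.75, 12.95 and 13.16 in RM1-MXRA7 and of 13.04, 12.98 and 13.28 in RM1-VE. RM1-MXRA7 was lower on each array, but the lines overlapped, because array 3 was brightest in both. The ratio was -0.14 ± 0.14 (SD, n = 3) after loess, 0.016 ± 0.11 with the surface trend removed and -0.042 ± 0.11 in Agilent's processed signals. The other probe, at position 2142, had ratios of 0.22, -0.13 and -0.006 on the 3 arrays after loess, with a mean of 0.030, and a mean of -0.077 with the trend removed. For Calm3 the sign of the mean changed with the processing at either probe, and no mean was clearly larger than its own SD.

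Camkk2, the kinase upstream of Camk1 and of AMPK, had levels at its brightest probe of 12.54, 12.23 and 12.15 in RM1-MXRA7 and of 12.66, 12.27 and 12.01 in RM1-VE. These overlapped, and the ratio was -0.0093 ± 0.13 (SD, n = 3) after loess and 0.015 ± 0.09 with the surface trend removed. The other probe, at position 1670, built on another transcript record, was slightly higher in RM1-MXRA7 on each array, at 0.10 ± 0.05 after loess, 0.17 ± 0.04 with the trend removed and 0.31 ± 0.04 in Agilent's processed signals. The levels at that probe, 7.10 to 7.29 and 6.97 to 7.21, overlapped between the lines.

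Camk1, which encodes CaMKI, had levels of 9.45, 9.82 and 9.84 in RM1-MXRA7 and of 9.23, 9.65 and 9.62 in RM1-VE. RM1-MXRA7 was higher on each array by a similar step, although the levels overlapped because array 1 was dimmer in both lines. The ratio of 0.21 ± 0.03 (SD, n = 3), a 1.15-fold higher level, became 0.17 ± 0.04 with the surface trend removed and 0.19 ± 0.055 in Agilent's processed signals. With any 1 of the 3 arrays left out, Camk1 no longer passed in both fits. With median centring in place of loess, where the median of all genes lay at -0.29, its ratio was -0.077.

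At the 10 spots of the Camk1 probe, the ratio after loess differed with the row of the spot. Why it did so was not tested. On array 1 the log2 ratio after loess ran from 0.51 at row 30 to -0.11 at row 502, on array 2 from 0.42 to -0.15 and on array 3 from 0.35 to -0.054. The SD over the 10 spots was 0.24, 0.25 and 0.16, larger than the ratio itself on arrays 1 and 2. Across the 10 spots of an array, which share 1 probe and 1 hybridisation, row and ratio had a Pearson's r of -0.95, -0.91 and -0.85 and a Spearman's rho of -0.96, -0.99 and -0.67. With the surface trend removed the SDs were 0.12, 0.12 and 0.081 and part of the slope remained, with r of -0.91, -0.92 and -0.45. In Agilent's processed signals the SDs were 0.081, 0.065 and 0.062, and 10 of 10 spots were above 0 on each array, against 7, 5 and 9 after loess. The other 11 probes of the 6 genes have 1 spot each on an array.

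**Figure D2:**
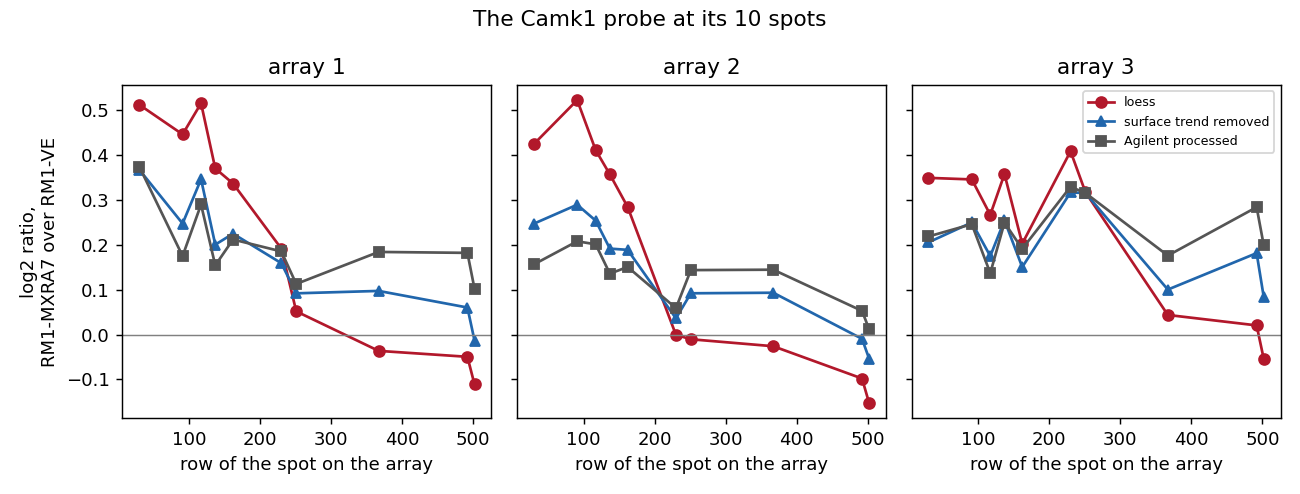
Log2 ratio of RM1-MXRA7 over RM1-VE (y axis) at each of the 10 spots of the Camk1 probe against the row of the spot (x axis), 1 panel per array and 1 line per processing. After loess the ratio is higher in the first rows than in the last on every array; in Agilent's processed signals all spots are above 0.

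Camk2d encodes the delta chain of CaMKII and was read by 4 probes. The brightest, at position 4011, had levels of 12.87, 12.99 and 13.15 in RM1-MXRA7 and of 13.00, 13.11 and 13.06 in RM1-VE, which overlapped. Its ratio was -0.053 ± 0.12 (SD, n = 3) after loess and 0.050 ± 0.045 with the surface trend removed. The other probes lay at 0.11, -0.23 and -0.32 after loess, a range of 0.44 over the gene, which narrowed to 0.27 with the trend removed and to 0.20 in Agilent's processed signals. The probe at position 1899, designed on a transcript record of its own, was lower in RM1-MXRA7 on every array in each processing. It had levels of 8.19, 8.38 and 8.43 against 8.55, 8.55 and 8.87, without overlap, and ratios of -0.32 ± 0.14, -0.22 ± 0.12 and -0.17 ± 0.18 in the 3 processings. The probe at 2124 changed sign, from 0.11 after loess to -0.15 with the trend removed.

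Ppp3ca, the catalytic calcineurin gene, had levels of 13.99, 14.09 and 14.16 in RM1-MXRA7 and of 14.08, 14.14 and 13.74 in RM1-VE. Only array 3 showed RM1-MXRA7 clearly higher, and the lines overlapped. The ratio of 0.095 ± 0.28 (SD, n = 3) after loess, 0.18 ± 0.18 with the surface trend removed and 0.080 ± 0.22 in Agilent's processed signals is no larger than its own spread. Without replicate 3 it was -0.067 after loess.

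**Figure D3:**
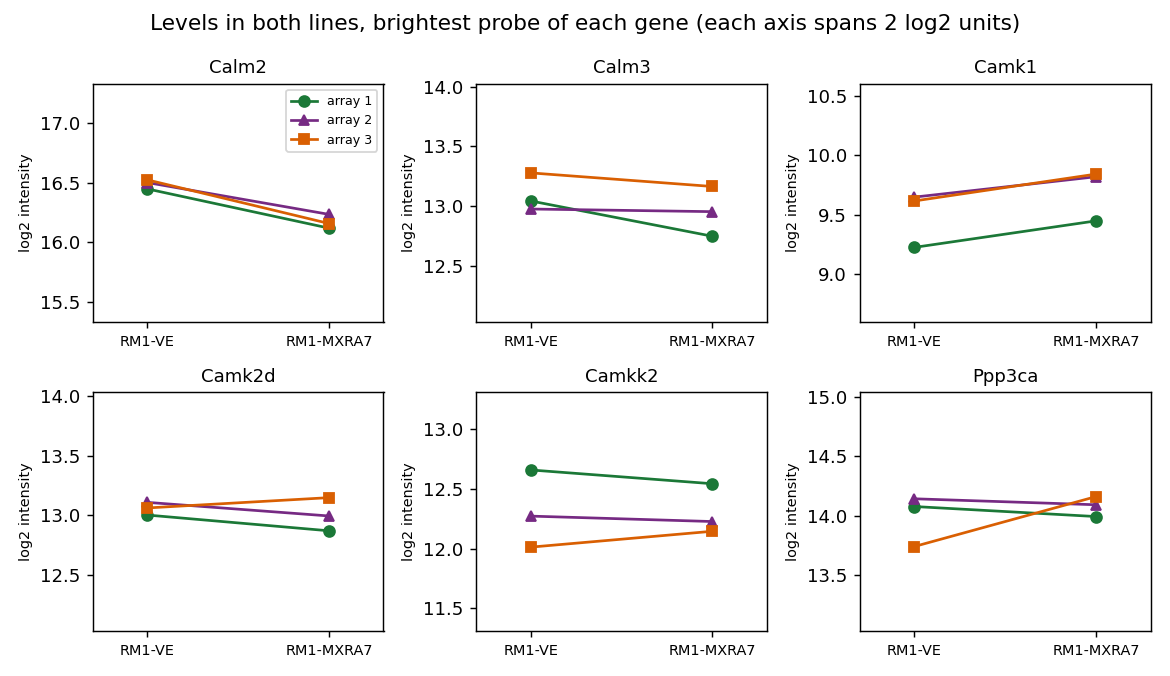
Log2 intensity after loess and Aquantile normalization (y axis, 2 log2 units in every panel) in RM1-VE and RM1-MXRA7 (x axis) for the brightest probe of each of the 6 genes; lines join the channels of 1 array. Calm2 and Calm3 slope downward and Camk1 upward on each array, while the arrays differ in direction for Camk2d, Camkk2 and Ppp3ca.

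Of the calmodulin-like genes, Calml4 had a ratio of 0.26 after loess and 0.22 with the trend removed. It was well above background in RM1-VE on 2 arrays only. As it passed the filter through RM1-MXRA7 alone, where it is higher, no test is given. Calm4, Calm5 and Calml3 were not well above background in either line.

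The other genes of the pathway came from lists chosen with earlier results of these data known. They are called risen or fallen only where limma passed them in the same direction after loess and with the surface trend removed. Of 89 listed genes besides the 6, all on the array, 65 could be tested. Of these, 11 rose, 13 fell and 41 were not called in the same direction in both fits. The share that rose or fell is 36.9%, beside 23.8% of all genes tested. The median log2 ratio was -0.018 against -0.015 over all genes. Without replicate 2 the count was 12, of which 11 had been called with all arrays, with 3 higher and 9 lower, and over all genes it went from 4003 to 1834. With median centring in place of loess, 7 of the 65 were called higher and 37 lower, where 954 of all 16825 genes were called higher and 9869 lower. The shares are given as a description, and the list was not tested against other genes. They include Camk2a, lower, and Prkaa2, higher, which passed the filter only through the line where each is higher. Calml4, not called in both fits, also passed the filter through RM1-MXRA7 alone. Where both lines had to be well above background, 62 genes were tested, without Calml4, Camk2a and Prkaa2.

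Among 9 tested kinase genes besides the 6's own, 0 were called higher and 2 lower in both fits, both for chains of CaMKII. That is 22.2%, beside 23.8% of all genes, and it includes Camk2a, whose fall carries no test. Camk2b, on chromosome 11, had levels of 9.68, 9.51 and 10.02 in RM1-MXRA7 and of 10.25, 10.22 and 10.51 in RM1-VE, without overlap, and its log2 ratio of -0.59 ± 0.11 (SD, n = 3) had an adjusted p of 2.90e-05 in limma. It was -0.48 with the trend removed. Camk2a, whose probes were well above background in RM1-MXRA7 on 2 of 3 arrays, lay at -0.37 ± 0.08, and its second probe at -0.38. It entered the count through RM1-VE, where it is higher, and is left out where a probe must be well above background in both lines, so its fall carries no test here. Camk2d, which encodes a sister chain, lay near 0 at its brightest probe, and Camk2g lay at 0.42 after loess but at 0.085 with the trend removed, where it did not pass. Of 4 tested genes for kinase inhibitors and phosphatases, 2 rose and 0 fell in both fits, or 50%, beside 23.8% of all genes. Camk2n1 and Camk2n2, which encode peptide inhibitors of CaMKII, rose by 0.60 ± 0.21 and 0.54 ± 0.12. With the trend removed Camk2n1 kept 0.56 while Camk2n2 lay at 0.21, over 1.5 times smaller, and Camk2n2 did not pass in both fits without replicate 1 or without replicate 2. The phosphatase genes Ppm1f and Ppm1e of the same list, with ratios of -0.020 and -0.20 after loess, did not pass there but passed with the trend removed, at 0.29 and -0.33.

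The calcineurin subunit genes beside Ppp3ca were not called in both fits. Ppp3cb, for the beta catalytic subunit, lay at 0.096 after loess and -0.088 with the trend removed, and Ppp3cc, for the gamma subunit, at -0.063 and 0.074. Ppp3r1, for the regulatory B subunit, had ratios of -0.14, -0.15 and -0.61 on the 3 arrays and passed after loess at a mean of -0.30, but lay at -0.068 with the trend removed (limma adjusted p = 0.576). Ppp3r2 was well above background on 1 array in each line and was not tested. Of 4 tested regulator genes, 1 rose and 1 fell in both fits, or 50%, beside 23.8% of all genes. Rcan3, from the family of calcineurin inhibitors, rose by 0.51 ± 0.13, or 0.30 with the trend removed. Cabin1, a calcineurin-binding inhibitor, had a ratio of -0.39 ± 0.07, or -0.26. The other 2 were not called in the same direction in both fits. Rcan1, a calcineurin-inducible member of that family, lay at 0.16 (limma adjusted p = 0.0920). Chp1, for a calcineurin B homologous protein, passed in opposite directions, at 0.24 after loess and -0.19 with the trend removed. Without replicate 2 neither Rcan3 nor Cabin1 passed in both fits, and without replicate 3 Cabin1 did not. Of the 4 NFAT genes, 1 rose and 1 fell in both fits, or 50%, beside 23.8% of all genes. Nfatc2 rose by 0.64 ± 0.20, or 0.40 with the trend removed, while Nfatc4 had a ratio of -0.44 ± 0.10, or -0.35. Nfatc1 and Nfatc3 were not called, at -0.14 and -0.18.

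**Figure D4:**
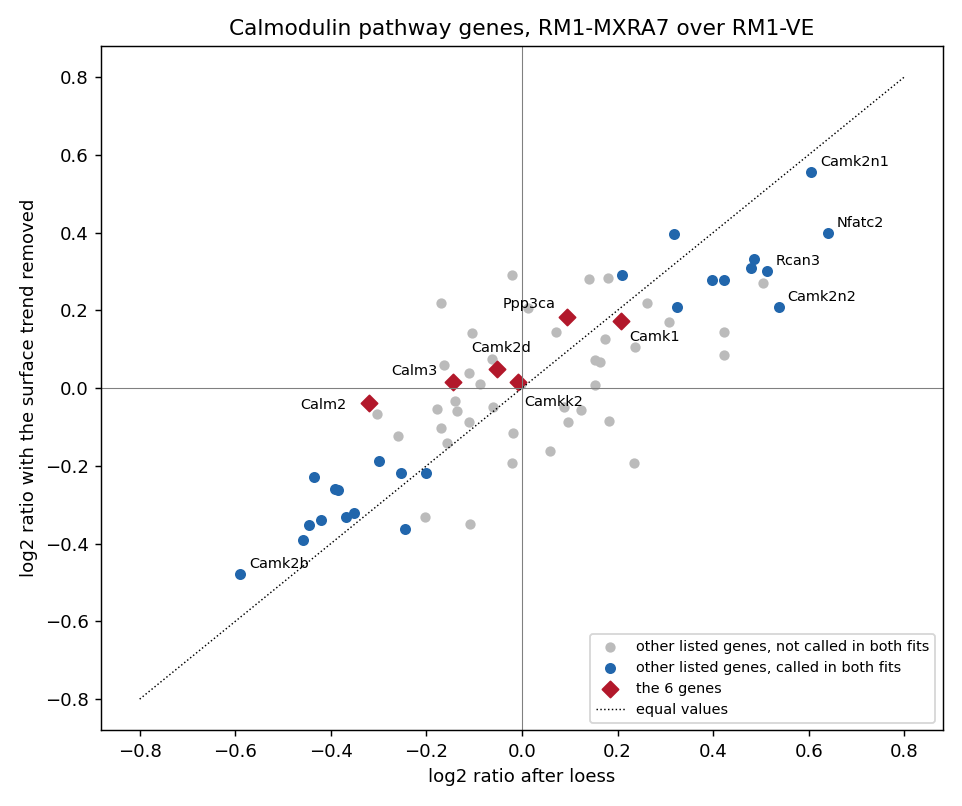
Log2 ratio of RM1-MXRA7 over RM1-VE after loess (x axis) and with the trend over the array surface removed (y axis) for the genes tested from the calmodulin lists, 1 point per gene at its brightest probe. The 6 genes (diamonds) lie within 0.2 of 0 on the y axis, with Calm2 farthest left at -0.32 on the x axis. Other genes called in the same direction in both fits lie to the lower left and the upper right.

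Of the 7 AMPK subunit genes, which form the kinase that CaMKK2 can activate, 2 were called higher and 0 lower in both fits. That is 28.6%, beside 23.8% of all genes, and it includes Prkaa2, for which no test is given. Prkag2, a gamma subunit gene, rose by 0.48 ± 0.11, or 0.33 with the trend removed, and did not pass in both without replicate 2. Prkaa2, an alpha subunit gene that no RM1-VE array measured well above background, was at least 1.23-fold higher in RM1-MXRA7. It entered the count through RM1-MXRA7 alone and is left out where both lines must be well above background, so no test is given. For this bound, each RM1-VE array took the larger of 2 values, the probe's own and the faintest that any probe well above background had. Prkaa1, Prkab1, Prkab2, Prkag1 and Prkag3 were not called in both fits.

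Calmodulin-binding enzymes and pumps gave 2 rises and 4 falls among 9 tested genes, or 66.7%, beside 23.8% of all genes. Itpkc, an inositol trisphosphate kinase gene, rose by 0.42 ± 0.10 and Adcy3, an adenylyl cyclase gene, by 0.32 ± 0.13, while Itpka lay at -0.46 ± 0.08 and the nitric oxide synthase gene Nos3 at -0.42 ± 0.09. Another probe of Nos3 lay at 0.03. Nos2 at -0.24 ± 0.15 and Atp2b4 at -0.20 ± 0.07 also fell. Of 13 tested genes for scaffold and calmodulin-storing proteins, 2 rose and 3 fell, or 38.5%. Marcksl1 rose by 0.48 ± 0.30 and Iqgap2 by 0.21 ± 0.15. Aspm, a spindle pole gene, lay at -0.43 ± 0.22, Iqgap3 at -0.30 ± 0.06 and neurogranin's gene Nrgn at -0.25 ± 0.10. Of 11 genes of calcium release and entry, 1 rose and 2 fell, or 27.3%, near the share of all genes. The calcium sensor gene Stim2 of the endoplasmic reticulum rose by 0.40 ± 0.07, the channel gene Orai2 lay at -0.38 ± 0.06 on 1 probe and -0.36 on another, and the pump gene Atp2a2 at -0.35 ± 0.06. Another probe of Atp2a2 lay at 0.18, opposite in sign. In Agilent's processed signals Itpkc, Adcy3, Marcksl1, Aspm and, of the CaMKII inhibitor genes, Camk2n2 did not pass, at 0.24, 0.17, 0.29, -0.25 and 0.17. Among the genes of these last 3 lists, ratios over 1.5 times smaller with the trend removed were those of Adcy3 at 0.21, Itpkc at 0.28, Marcksl1 at 0.31, Aspm at -0.23 and Iqgap3 at -0.19. Of the genes named earlier, Camk2n2 at 0.21, Rcan3 at 0.30, Nfatc2 at 0.40 and Cabin1 at -0.26 also shrank that far. Without replicate 2, Adcy3, Atp2b4, Itpkc, Marcksl1, Iqgap2, Iqgap3, Nrgn, Stim2 and Orai2 did not pass in both fits. Without replicate 1 Aspm, Atp2b4, Iqgap3, Marcksl1, Nos2 and Nrgn did not. Without replicate 3 Adcy3, Aspm, Iqgap2, Iqgap3 and Nos2 did not.

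Over the 3 log2 ratios with the surface trend removed, the genes nearest to Calm2 by Euclidean distance were Atp5md, Ddx41 and Baiap2, at distances of 0.019, 0.019 and 0.022. As many as 596 of 16825 genes lay within 0.1 of Calm2, so over 3 arrays this nearness picks out little.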

How the data were processed

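The members and lists were chosen with earlier results of these data known. The authors deposited Agilent scanner intensity values per spot and, as a value table, linear ratios. Per the file headers, signals came from Agilent Feature Extraction 10.7.1.1 and coordinates are on mm9. The deposited ratio column equals Cy3 over Cy5 of the processed signals within 1% for 99.6% to 99.7% of values, with column medians of 1.02, 1.03 and 0.972. Its scale, centring and direction are thereby settled. Agilent's log10 ratio column, also deposited, was not used.

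Mean spot signals were corrected for median background signals by normexp (offset 50). They were normalized by loess within arrays in limma 3.58.1 (R 4.3.3), with control spots at weight 0. Outlier spots, 226 to 344 per array, were left out. Repeat spots were averaged. Probes had to be well above background in Cy3 on all 3 arrays or in Cy5 on all 3, as 21803 were, and each of the 16825 genes they cover was read by the brightest of them. Log2 ratios of RM1-MXRA7 over RM1-VE were tested against 0 with lmFit and eBayes and Benjamini-Hochberg adjustment (threshold 0.05). The array number pairs the lines, since both share an array. In a second fit a surface over row and column (degree 4, with terms alone and multiplied by log2 intensity) was removed from each array, which took 19.8% to 27.3% of the variance. Levels are log2 intensities after loess and Aquantile and are not compared between probes. Symbols of 27508 probes came through RefSeq accessions, and 11921 kept the file's name. On simulated data of 16825 genes, 67, 67 and 66 genes were changed by log2 0.5, 1 and 2. Of these, 100% were recovered at each step, with 10 false calls. Changes below log2 0.5 were not simulated, so recovery of ratios as small as those of Calm2 and Camk1 was not tested. Far fewer genes were changed there than were called in the data, so false calls at the share called here were not tested either.

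Named were the 6 genes, Mxra7, up to 4 genes per list called in both fits (largest ratios), the genes of the calmodulin and calcineurin subunit lists, and the 3 nearest to Calm2. Camk2g, Ppm1f, Ppm1e, Rcan1, Chp1, Nfatc1, Nfatc3, Nos2, Atp2b4, Iqgap2 and the other AMPK genes were named after their values were seen. Some listed genes are not reported here and are left out of the list counts.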

Additional observations from a re-analysis of the deposited data

How the results depend on the processing

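Of 16825 genes, 7968 were called after loess and 33 of the 65 pathway genes. With the array number as replicate block on single channels the counts were the same, 7968 and 33. That setting repeats the pairing already held in the log ratio, so it is no separate check. Without the block the counts were 2323 and 13. Agilent's processed signals gave 4100 genes and the deposited ratios 4083. Leaving out 1 array gave 5110 to 7398 genes and 27 to 32 pathway genes, the lowest count of genes being that without replicate 2. Removal of the surface trend gave 5468 genes and 31 pathway genes. Median centring in place of loess put the median of all genes at -0.29 and made 8.81% of calls higher, against 50.4% after loess, with 10823 genes and 44 pathway genes called. There Camk1 turned to -0.077, Ppp3ca to -0.43 and the brightest Mxra7 probe to -0.023, and Calm2, Calm3, Camk2d and Camkk2 moved to -1.10, -0.58, -0.49 and -0.40. That Mxra7 probe also turned to -0.034 in Agilent's processed signals and in the deposited ratios, where the other Mxra7 probe lay at 0.18 in the processed signals. Nos2, Atp2b4 and Iqgap2 were not followed over these settings. Of the rest named as called in both fits, none changed sign in the settings run, and the causes were not tested. Among single genes other than the 6, 31 values lost their call in a setting with the same sign, 272 did not. The latter include the values of the block setting, which could not differ. With 3 arrays, no dye swap and 1 slide, precision is limited for differences as small as those of the 6 genes. At the Camk1 probe the SD over 10 spots after loess was 0.24, 0.25 and 0.16 on arrays 1, 2 and 3. The other probes of the 6 genes have 1 spot each, so no such spread was measured there.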
